A study of Homo sapiens with 4 samples.

Results

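The genes described here are the 31 genes of cholesterol and fatty acid synthesis that were listed in the table of U87 cells, out of 19314 genes listed and 16595 with a value above 0 in any library. They were chosen by name, as the enzymes from acetyl-CoA to cholesterol and from acetyl-CoA to unsaturated fatty acids together with the regulators that control them, and all 31 were found. U87 is an established human glioma cell line, and RNA from it was sequenced in 4 libraries. In the 2 PTP2 libraries PTPRN was knocked down, and the 2 SCR libraries were the control with a scrambled hairpin. PTPRN is a receptor-type member of the protein tyrosine phosphatase family in secretory vesicles, and the study describes its phosphatase domain as inactive. The comparison asked how the transcriptome of U87 cells changed with PTPRN knockdown. Hairpins were expressed from the pLKO.1 vector, and both knockdown libraries carry the same code, so the effect of that hairpin's sequence and of the loss of PTPRN cannot be told apart. No source used here says that the libraries came from separate cultures, and p-values then measure only the spread between these libraries, which may be technical.

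PTPRN itself was at 12.09 and 11.68 FPKM (fragments per kilobase of transcript, scaled to the mapped reads of the library) in the PTP2 libraries and at 84.84 and 85.02 FPKM in the SCR libraries, a log2 fold change of -2.74 with a standard error of 0.03 and an adjusted p of 0.000148. The labelled knockdown was thus seen in both libraries. Depth was estimated at 18200000 to 19750000 reads per library, and replicates correlated at a Pearson r of 0.999 across genes. The growth text of the labels names hCMEC/D3, a brain endothelial line, in a supplemented medium with growth factors, whereas the methods describe U87 cells in medium with serum, and which medium these libraries came from was not settled by the sources. The endothelial markers CDH5 and CLDN5 were at most 0.03 FPKM in every library, and the 13 endothelial markers with a value summed to 4.6 and 5.25 FPKM with PTP2 and to 5.57 and 5.67 FPKM with SCR. CDKN2A and MTAP, neighbours in a region that U87 cells are known to have lost, were at most 0.05 and 0.34 FPKM. Of the glial and glioma markers, VIM was at 4766.13 and 4564.5 FPKM with PTP2 and at 1997.7 and 1918.05 FPKM with SCR. SLC1A3 was at 10.23 and 9.76 FPKM with PTP2 and at 5.81 and 5.99 FPKM with SCR, while GFAP, S100B and SOX2 were below 1 FPKM in every library.

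Cells make cholesterol and fatty acids from the same acetyl-CoA, and the genes for both routes share a set of regulators. The transcription factors SREBP-1 (from SREBF1) and SREBP-2 (from SREBF2) are made as membrane proteins of the endoplasmic reticulum and are held there with the escort protein SCAP by the INSIG proteins when sterols are plentiful. When sterols fall short, SCAP carries them to the Golgi, proteases release the active part, and it binds sterol regulatory elements (SREs) in promoters, together with the partner factors NF-Y, which binds CCAAT, and Sp1, which binds GC boxes. SREBP-1 is known mainly for fatty acid genes and SREBP-2 for cholesterol genes. Glioma cells are known to rely on this system for membrane lipids.

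Promoter sequences were looked up because the genes have this control in common. RefSeq windows from 250 bases before to 50 bases after the start of a transcript (GRCh38.p14) were at hand for 27 of the 31 genes, with ACAT2, FDFT1, SQLE and FASN missing from the table. The SRE core CACNCCAC, on either strand, was present for 6 of the 27 genes (22.2%), against 8.16% of the 13258 tested genes with a window and 5.87% of all 35116 windows. A stretch around each of the 6 matches is given here 5′ to 3′ in the direction of transcription, with the SRE core (CACNCCAC or its reverse complement GTGGNGTG) and any CCAAT box (CCAAT or ATTGG) in capitals.
INSIG1, chr7:155297630-155297717, forward strand: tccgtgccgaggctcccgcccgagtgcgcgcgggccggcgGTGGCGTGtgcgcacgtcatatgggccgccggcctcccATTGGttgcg
IDI1, chr10:1048954-1049041, reverse strand: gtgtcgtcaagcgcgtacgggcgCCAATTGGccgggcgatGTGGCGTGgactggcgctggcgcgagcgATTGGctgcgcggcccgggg
SCD, chr10:100347079-100347166, forward strand: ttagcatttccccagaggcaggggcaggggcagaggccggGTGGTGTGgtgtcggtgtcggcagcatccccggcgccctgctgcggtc
SC5D, chr11:121292744-121292831, forward strand: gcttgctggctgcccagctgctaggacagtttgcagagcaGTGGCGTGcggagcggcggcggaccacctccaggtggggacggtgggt
ACACA, chr17:37299944-37300017, reverse strand: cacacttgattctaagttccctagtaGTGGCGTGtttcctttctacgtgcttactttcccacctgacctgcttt
SREBF2, chr22:41832933-41833020, forward strand: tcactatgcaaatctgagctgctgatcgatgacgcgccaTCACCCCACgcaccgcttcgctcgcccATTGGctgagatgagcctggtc
The match began 208 bases before the RefSeq transcript start of its window for INSIG1, 115 for IDI1 and 114 for SCD. For SC5D it began 68 bases before that start, for ACACA 224 and for SREBF2 132. The stretches of IDI1, SCD and SC5D lie inside the gene spans listed with the FPKM values, which begin farther upstream. ACACA is listed there on an alternative scaffold of chromosome 17, so its stretch cannot be placed against that span. For SREBF2 alone of the 27 genes the core was preceded by a T (TCACNCCAC, 3.7% of the genes against 1.51% of tested genes and 1.13% of all windows), and this longer motif overlaps the core by definition. In the IDI1 stretch the palindrome CCAATTGG holds the CCAAT box on both strands. The CCAAT box was in the windows of 20 of the 27 genes (74.1%), against 43.0% of tested genes and 34.6% of all windows. The GC box GGGCGG, on either strand, was in those of 26 (96.3%), against 70.3% and 45.0%, and the E-box CACGTG in those of SCAP, INSIG1, LSS and SC5D (14.8%), against 11.7% and 7.26%. These shares are a description, since a match of letters is not a binding site and a gene with several listed starts has several windows.

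With PTPRN knocked down, transcripts of both routes were lower. Of the 31 genes 29 fell at an adjusted p of 0.05 and 0 rose, while PMVK and ELOVL6 did not pass. Of all 16595 genes tested, 27.1% were called lower and 30.8% higher at this threshold, and among the 11272 genes with a mean of at least 1 FPKM, a level that all 31 genes passed in every library, 33.5% were called lower and 41.1% higher. The stricter thresholds of the study (2-fold or more, adjusted p no higher than 0.001) were applied with the fold taken on FPKM + 1. By them 12 of the 31 genes were lower and 0 higher, against 4.06% of all genes tested lower and 2.63% higher. Among the 11272 genes with a mean of at least 1 FPKM, 5.78% were lower by these thresholds. With the fold taken on FPKM itself, 14 of the 31 genes were at least 2-fold lower, and the share of all genes on this measure was not computed. At an unadjusted limma p under 0.05, 0 of the 31 genes were higher as well. In 29 genes both SCR libraries were above both PTP2 libraries, a separation that 35.8% of all genes tested showed in this direction and 39.7% in the other. The median log2 fold change of the 31 genes, on the log2(FPKM + 1) scale used for every log2 value here, was -0.91, and that of all genes tested was 0.01. This scale understates the change of genes with low values. In the fits without 1 library, which follow, fewer of all genes tested were called in either direction than with all 4. The share of all genes with a log2 fold change of -1 or below was not computed. Without PTP2 replicate 1, PTP2 replicate 2, SCR replicate 1 or SCR replicate 2, the genes called lower at 0.05 numbered 25, 26, 26 and 26, and 0 of all genes tested passed the stricter adjusted p in any of these 4 fits, so that the count of 12 became 0, while 11 to 14 of the 31 genes still had a log2 fold change of -1 or below.

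The summed level of the 31 genes was 1175.8 and 1178.53 FPKM in the PTP2 libraries and 2769.2 and 2746.73 FPKM in the SCR libraries. The knockdown libraries thus held 42.7% of the control level, and 53.9% when SCD was left out of the sum, since SCD accounted for 40.4% of the difference. Without SCD the median log2 fold change was -0.89. In bulk libraries, fewer cells with a transcript and less of it per cell cannot be told apart.

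**Figure D1:**
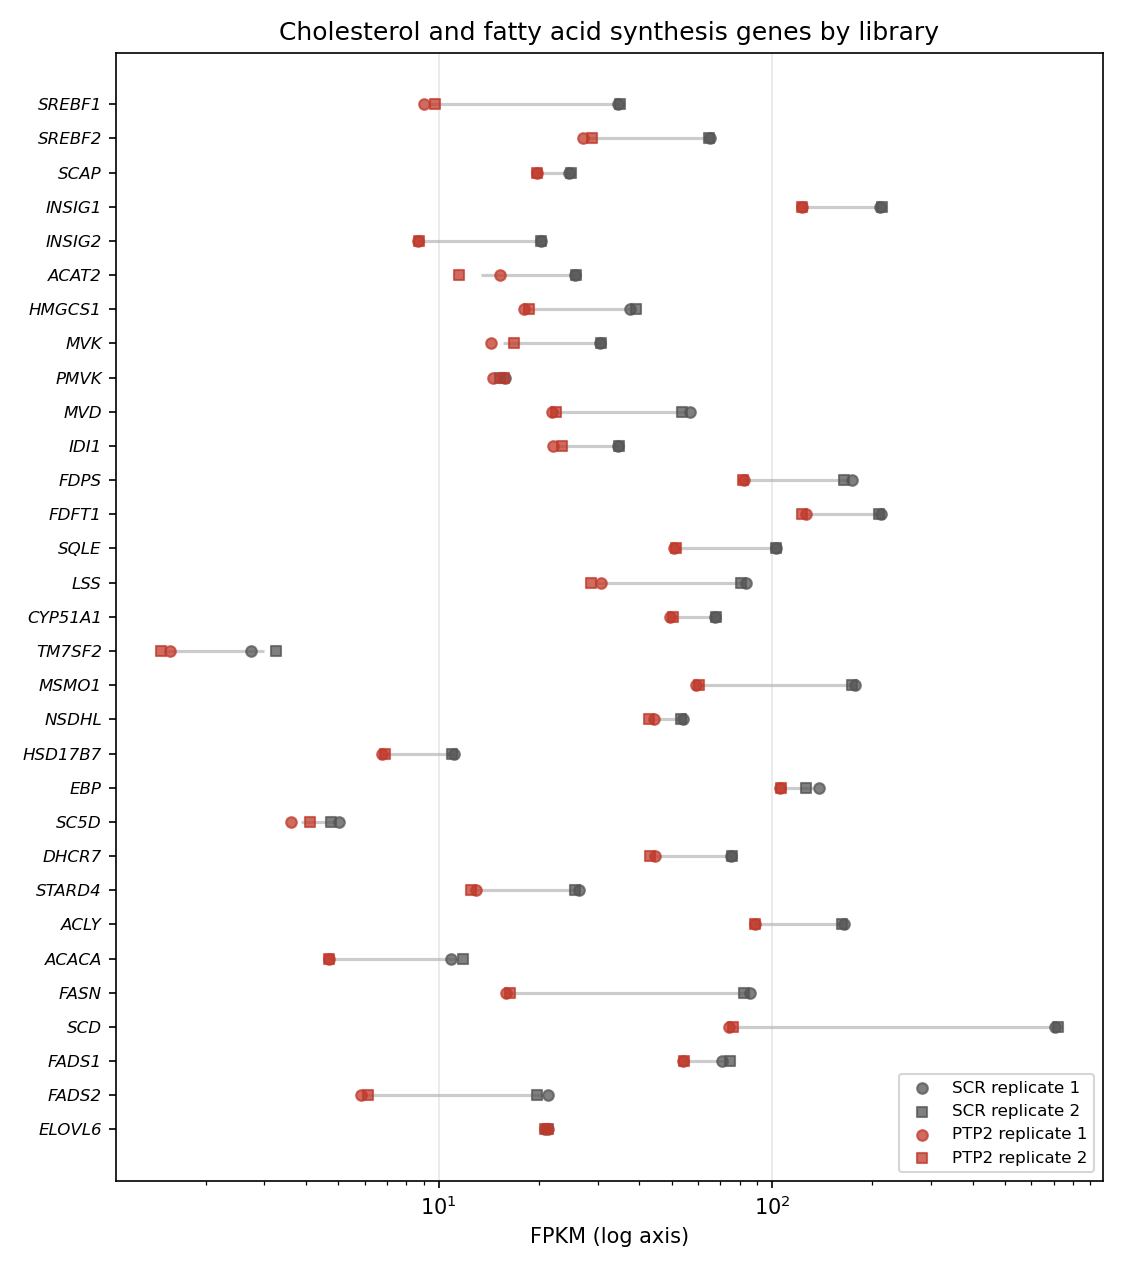
FPKM (log axis) of the 31 genes in each of the 4 libraries, with SCR libraries in grey, PTP2 libraries in red, circles for replicate 1, squares for replicate 2 and a line between the group means. The groups are apart for 29 genes and overlap for PMVK and ELOVL6, and SCD shows the widest gap, from about 75.1 to 714 FPKM.

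All 5 genes of the SREBP system fell. SREBF1 (gene ID 6720, chromosome 17 from 17811349 to 17837011, reverse strand, GRCh38) was at 9.0 and 9.75 FPKM with PTP2 and at 34.59 and 34.88 FPKM with SCR, a log2 fold change of -1.79 with a standard error of 0.05 and an adjusted p of 0.0003. SREBF2 (gene ID 6721, chromosome 22 from 41833079 to 41907308, forward strand), whose promoter holds the full TCACNCCAC motif shown above, was at 27.06 and 28.89 FPKM with PTP2 and at 65.0 and 64.61 FPKM with SCR, a log2 fold change of -1.18 with a standard error of 0.04 and an adjusted p of 0.000415. SREBF2 was the more abundant of the pair in every library, and the ratio of SREBF2 to SREBF1 was 3.01 and 2.96 with PTP2 against 1.88 and 1.85 with SCR.

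Both INSIG genes, which code for the proteins that retain SCAP, fell with the factors they hold back. INSIG1, itself a known SREBP target, was at 122.78 and 123.21 FPKM with PTP2 and at 211.19 and 213.13 FPKM with SCR (log2 fold change -0.78, standard error 0.03, adjusted p 0.00041). INSIG2 was at 8.65 and 8.72 FPKM with PTP2 and at 20.28 and 20.24 FPKM with SCR (log2 fold change -1.13, standard error 0.03, adjusted p 0.000271). The ratio of INSIG1 to INSIG2 was 14.19 and 14.13 with PTP2 and 10.41 and 10.53 with SCR. SCAP was 19.71 FPKM in both PTP2 libraries and 24.53 and 24.87 FPKM in the SCR libraries, a log2 fold change of -0.31 (standard error 0.03, adjusted p 0.00234), and with trends on GC content and length removed it was at -0.02 with an adjusted p of 0.639.

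On the route from acetyl-CoA to squalene and its epoxide, 8 of 9 genes fell, with a median log2 fold change of -0.93. MVD, the decarboxylase that makes isopentenyl diphosphate, fell most, from 56.84 and 53.59 FPKM with SCR to 21.87 and 22.49 FPKM with PTP2 (log2 fold change -1.28, standard error 0.04, adjusted p 0.000384). HMGCS1, which makes HMG-CoA at the entry to the mevalonate route, went from 37.59 and 39.1 FPKM to 18.02 and 18.62 FPKM (log2 fold change -1.03, standard error 0.04, adjusted p 0.000421). Both genes were thus at less than 50% of their control level, at 40.17% and 47.78%.

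FDPS, which makes farnesyl diphosphate, was at 174.28 and 164.35 FPKM with SCR and at 82.34 and 81.57 FPKM with PTP2 (log2 fold change -1.04, adjusted p 0.00047). SQLE, the squalene epoxidase and a control point of the sterol branch, was at 102.42 and 102.58 FPKM with SCR and at 50.86 and 51.52 FPKM with PTP2 (log2 fold change -0.99, adjusted p 0.000331). SQLE and the sterol carrier gene STARD4 (-0.98) lay just outside the 2-fold threshold on the log2(FPKM + 1) scale, and HMGCS1 and FDPS just inside it. In FPKM without the added 1, SQLE was 2.00-fold and STARD4 2.05-fold lower.

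FDFT1, the squalene synthase, was among the most abundant of the 31 genes, with 212.41 and 209.71 FPKM with SCR and 126.56 and 122.64 FPKM with PTP2 (log2 fold change -0.76, adjusted p 0.00053). IDI1, the isomerase of isopentenyl diphosphate, was at 34.52 and 34.82 FPKM with SCR and at 21.96 and 23.5 FPKM with PTP2 (log2 fold change -0.59, adjusted p 0.00146). Both fell by less than 2-fold, with the libraries of a group close to each other.

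The replicates were farther apart for ACAT2 and MVK. ACAT2, the acetyl-CoA acetyltransferase of the cytosol, was at 15.24 and 11.51 FPKM with PTP2 and at 25.58 and 25.89 FPKM with SCR (log2 fold change -0.91, standard error 0.14, adjusted p 0.00934). MVK, the mevalonate kinase, was at 14.38 and 16.78 FPKM with PTP2 and at 30.39 and 30.77 FPKM with SCR (log2 fold change -0.93, standard error 0.08, adjusted p 0.00208). Without SCR replicate 1 or without SCR replicate 2 neither passed, with adjusted p of 0.135 and 0.138 for ACAT2 and of 0.0666 and 0.0669 for MVK.

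PMVK, the phosphomevalonate kinase that acts between MVK and MVD, was the exception on this route. It was at 14.5 and 15.71 FPKM with PTP2 and at 15.84 and 15.22 FPKM with SCR, so the groups overlapped. Its log2 fold change was -0.04 with a 95% interval from -0.19 to 0.11 and an adjusted p of 0.59, an interval that leaves out the fold changes of MVK and MVD.

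From squalene epoxide to cholesterol all 9 genes fell, with a median log2 fold change of -0.62. LSS, the lanosterol synthase that closes the sterol rings, went from 83.69 and 80.84 FPKM with SCR to 30.6 and 28.63 FPKM with PTP2 (log2 fold change -1.44, standard error 0.05, adjusted p 0.000371). MSMO1, the sterol methyl oxidase, went from 177.49 and 173.18 FPKM to 59.01 and 60.28 FPKM (log2 fold change -1.54, standard error 0.03, adjusted p 0.000242). These were the 2 genes of the sterol branch past the 2-fold threshold and the 2 largest falls among the cholesterol enzymes.

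DHCR7, the reductase of the last step in one order of the pathway, was at 75.36 and 75.86 FPKM with SCR and at 44.54 and 43.01 FPKM with PTP2 (log2 fold change -0.78, adjusted p 0.000521). HSD17B7, a sterol ketone reductase, was at 11.1 and 10.96 FPKM with SCR and at 6.76 and 6.89 FPKM with PTP2 (log2 fold change -0.62, adjusted p 0.000611). TM7SF2, a sterol reductase, had the lowest level of the 31 genes, with 2.73 and 3.24 FPKM with SCR and 1.56 and 1.47 FPKM with PTP2, or about 42 to 92 reads per library, and fell by 0.66 on the log2 scale (adjusted p 0.00406).

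The 4 smallest falls among the cholesterol enzymes were also on this branch. CYP51A1, the lanosterol demethylase, was at 67.5 and 67.7 FPKM with SCR and at 49.53 and 50.51 FPKM with PTP2, a log2 fold change of -0.43. NSDHL, the sterol dehydrogenase that follows MSMO1 in the removal of methyl groups, was at 54.11 and 53.38 FPKM with SCR and at 44.11 and 42.79 FPKM with PTP2, a log2 fold change of -0.30 with a 95% interval from -0.39 to -0.21, which does not reach the interval of MSMO1, from -1.63 to -1.45. EBP, a sterol isomerase, and SC5D, a sterol desaturase, had log2 fold changes of -0.32 and -0.28, with adjusted p of 0.0131 and 0.0327.

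EBP and TM7SF2 did not pass without PTP2 replicate 1 (adjusted p of 0.132 and 0.0752) or without PTP2 replicate 2 (0.127 and 0.0824). SC5D, at 3.6 and 4.12 FPKM with PTP2 and at 5.03 and 4.74 FPKM with SCR, passed in none of the 4 fits that left out 1 library, with adjusted p from 0.0576 to 0.231. STARD4, which moves sterols between membranes, was at 26.44 and 25.63 FPKM with SCR and at 12.93 and 12.48 FPKM with PTP2 (log2 fold change -0.98, adjusted p 0.000421).

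**Figure D2:**
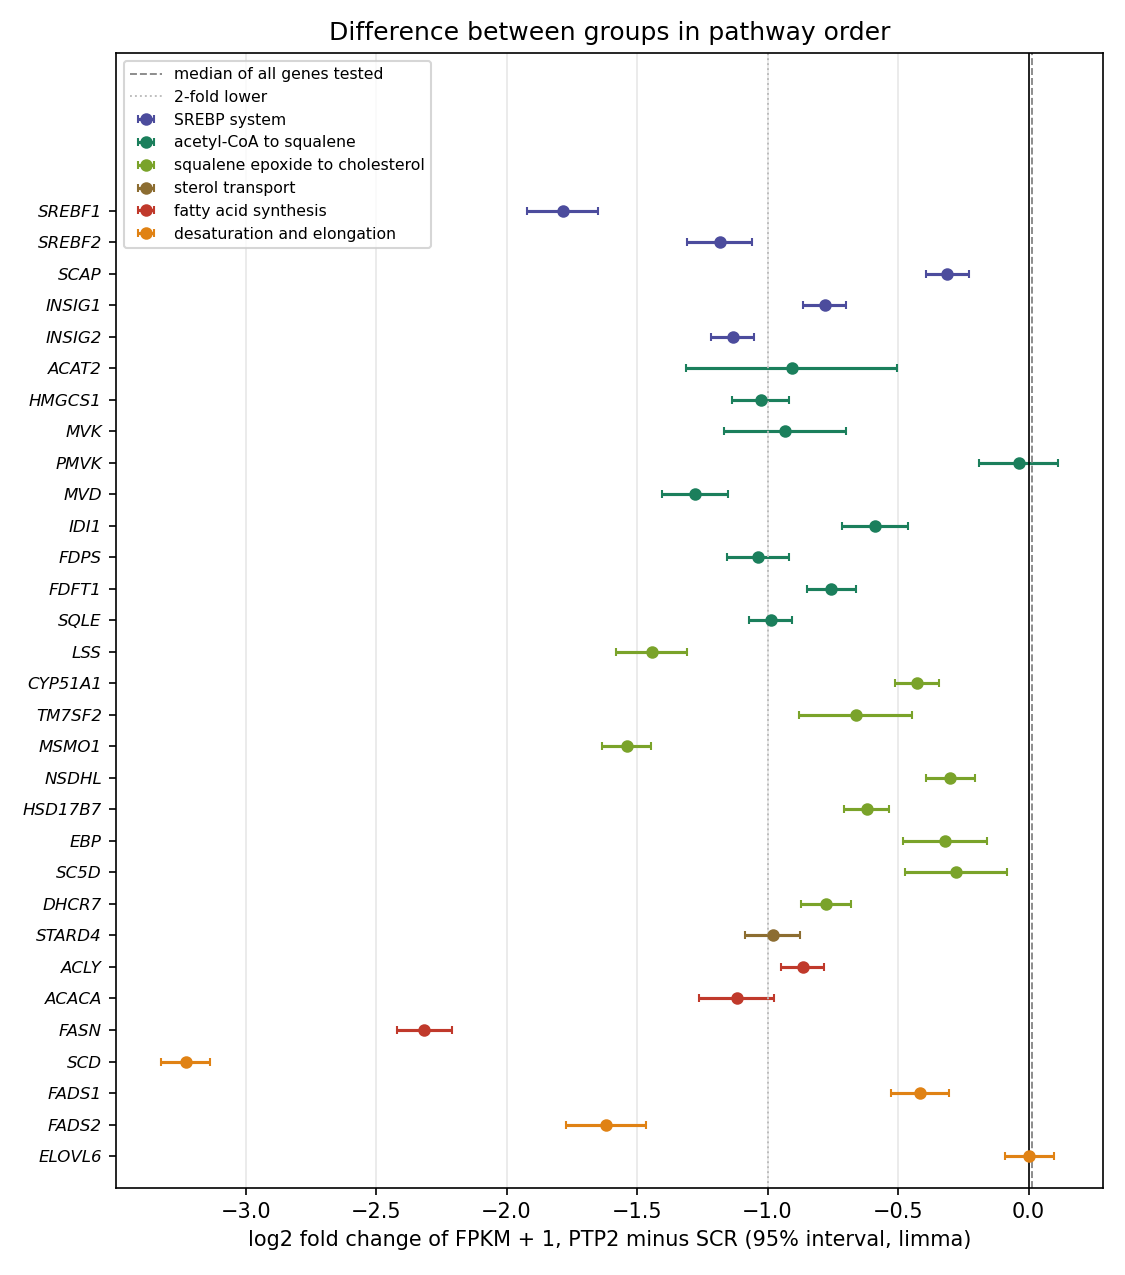
Log2 fold change of FPKM + 1 (PTP2 minus SCR) for the 31 genes in the order of the pathway, with 95% intervals from limma and colours for the step. All points but those of PMVK (-0.04) and ELOVL6 (0.00) have intervals below 0, and those of SCD (-3.23) and FASN (-2.31) lie farthest to the left.

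All 3 genes that make palmitate from citrate fell. FASN (gene ID 2194, chromosome 17 from 82078338 to 82098230, reverse strand), the fatty acid synthase, went from 86.09 and 82.54 FPKM with SCR to 15.96 and 16.33 FPKM with PTP2. It was thus 5.22-fold lower in FPKM, and its log2 difference was -2.31, with a standard error of 0.04 and an adjusted p of 0.000166. ACACA, the acetyl-CoA carboxylase that makes malonyl-CoA, was at 10.86 and 11.84 FPKM with SCR and at 4.7 and 4.67 FPKM with PTP2 (log2 fold change -1.12, standard error 0.05, adjusted p 0.000553). ACLY, the citrate lyase that supplies acetyl-CoA to both routes, was at 164.36 and 161.93 FPKM with SCR and at 89.03 and 89.11 FPKM with PTP2 (log2 fold change -0.87, standard error 0.03, adjusted p 0.000375).

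SCD (gene ID 6319, chromosome 10 from 100347015 to 100364831, forward strand), the stearoyl-CoA desaturase that makes monounsaturated fatty acids, had the largest fall of the 31 genes. It was at 707.65 and 719.36 FPKM with SCR, rank 50 of all genes by level, and at 74.1 and 76.18 FPKM with PTP2, rank 1008. The fall was 9.50-fold in FPKM and -3.23 on the log2 scale, with a standard error of 0.03 and an adjusted p of 0.000127. On the log2(FPKM + 1) scale, only 28 of the 16595 genes tested had a lower log2 fold change than SCD. By this scale SCD ranked 29 from the lowest, FASN 87 and SREBF1 190. Genes with low values can rank behind on it, as MYLIP did with a 24.16-fold fall in FPKM and a log2 fold change of -1.84. SCD and FASN did not fall in proportion, as the ratio of SCD to FASN was 8.22 and 8.71 with SCR and 4.64 and 4.67 with PTP2.

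The other 3 genes that modify fatty acids differed among themselves. FADS2 was at 21.31 and 19.71 FPKM with SCR and at 5.85 and 6.15 FPKM with PTP2 (log2 fold change -1.62, standard error 0.05, adjusted p 0.000371). FADS1, its neighbour on chromosome 11, was at 70.85 and 74.59 FPKM with SCR and at 53.96 and 54.41 FPKM with PTP2 (log2 fold change -0.42, standard error 0.04, adjusted p 0.0024), and had an adjusted p of 0.0505 without PTP2 replicate 1. With trends on GC content and length removed, FADS1 still passed but its log2 fold change was -0.22. Both code for desaturases of polyunsaturated fatty acids, and the ratio of FADS1 to FADS2 was 9.22 and 8.85 with PTP2 against 3.33 and 3.78 with SCR.

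ELOVL6, the elongase that turns palmitate into stearate, the substrate of SCD, was at 21.33 and 20.85 FPKM with PTP2 and at 20.78 and 21.32 FPKM with SCR. The groups overlapped, and the log2 fold change was 0.00 with a 95% interval from -0.09 to 0.10 and an adjusted p of 0.958. SCD was at 34.05 and 33.74 times the level of ELOVL6 in the SCR libraries and at 3.47 and 3.65 times in the PTP2 libraries. The fatty acid genes thus held both the largest fall of the 31 genes and the gene whose log2 fold change was nearest to 0.

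**Figure D3:**
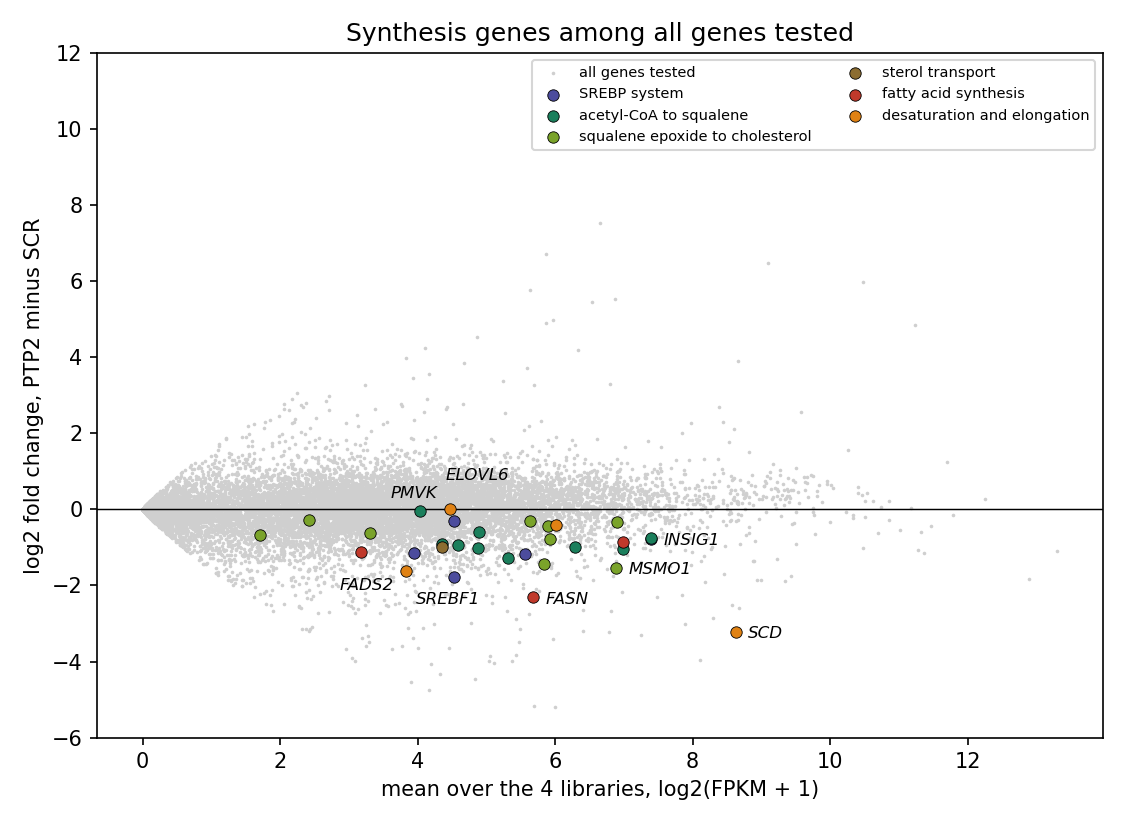
Log2 fold change (PTP2 minus SCR) against the mean of the 4 libraries in log2(FPKM + 1), for all 16595 genes tested in grey and the 31 genes in colours for the step. The 31 genes lie at or below 0 over a wide range of levels, apart from ELOVL6 at 0.00. On the log2(FPKM + 1) scale, 21 of them are among the 10% of genes with the lowest log2 fold changes.

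The counting limits some of these values. In the GENCODE annotation of GRCh38, exons of ACAT2 share bases with SOD2-OT1 (33.9% of its exon bases), SOD2 (26.5%) and TCP1 (9.23%) on the opposite strand. FDPS shares 18.6% with RUSC1-AS1, HMGCS1 15.0% with AC114947.2 and IDI1 14.8% with IDI2-AS1, also on the opposite strand, and CYP51A1 shares 79.4% with AC000120.2 on the same strand. FADS1 and FADS2 share 490 bases. The use of strand in counting is not given in the sources used here, so reads of the pairs on opposite strands cannot be told apart. For CYP51A1 and AC000120.2, on the same strand, use of strand would not separate the shared reads. FDPS has 8 pseudogenes named after it, CYP51A1 3, HSD17B7 2, and SCD and FADS2 1 each, so their levels are uncertain where reads match both copies.

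Genes next to the pathway did not all move with it. For the lists that follow, the shares over all genes tested were 27.1% called lower and 30.8% called higher. These shares are from the fit on all 4 libraries. In each fit that left out 1 library, fewer of all genes tested were called in either direction. Counts from those fits are therefore not comparable with these shares. Of 15 other sterol and isoprenoid enzymes with a value, 7 were called lower and 8 higher, with a median log2 fold change of 0.31. FNTB, a subunit of farnesyltransferase, fell by 0.79 on the log2 scale. ACAT1, the acetyl-CoA acetyltransferase of mitochondria, rose from 4.24 and 3.51 FPKM to 12.44 and 14.11 FPKM (log2 fold change 1.55, adjusted p 0.00114), whereas its cytosolic counterpart ACAT2 fell. PDSS1, which makes the side chain of coenzyme Q, rose by 1.02. Without PTP2 replicate 1 or 2 the counts were 3 lower and 4 higher and PDSS1 had adjusted p of 0.0671 and 0.0595, without SCR replicate 1 or 2 only 2 were lower, and FNTB missed the threshold in each of these 4 fits (0.0841 to 0.192).

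Of 16 genes for SREBP processing and promoter partners, 5 were lower and 6 higher (31.2% and 37.5%), with a median of 0.06. These shares are near those of all genes with a mean of at least 1 FPKM (33.5% and 41.1%). MBTPS1, the protease that makes the first cut of the SREBPs, fell from 45.88 and 47.73 FPKM with SCR to 23.81 and 24.14 FPKM with PTP2 (log2 fold change -0.94, adjusted p 0.000427). MBTPS2, the protease of the second cut, was at 9.84 and 10.5 FPKM with PTP2 and at 10.39 and 10.74 FPKM with SCR (adjusted p 0.413). NFYA, a subunit of NF-Y, fell by 0.49, and FAF2 and TRIB1 rose by 0.58 and 0.62. Without SCR replicate 1 or 2, 3 genes were lower and 2 or 3 higher, NFYA had adjusted p of 0.0854 and 0.094, and TRIB1 had 0.0506 without SCR replicate 1. MBTPS2 was named after its values were seen.

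Of 25 genes of cholesterol uptake, trafficking and efflux with targets of the oxysterol receptor LXR, 14 were lower and 3 higher, with a median of -0.29. SCARB1, a receptor for high-density lipoprotein, fell from 26.1 and 24.92 FPKM with SCR to 6.09 and 6.59 FPKM with PTP2 (log2 fold change -1.85, adjusted p 0.000314). MYLIP, a ubiquitin ligase for lipoprotein receptors and an LXR target, fell from 3.02 FPKM in both SCR libraries to 0.07 and 0.18 FPKM (log2 fold change -1.84, adjusted p 0.000357). NPC1, which exports cholesterol from lysosomes, and OSBPL2, an oxysterol-binding protein, rose by 0.45 and 0.33. The lower genes numbered 9 without PTP2 replicate 1, 7 without SCR replicate 1 and 8 without SCR replicate 2, and in the fits without SCR replicate 1 or 2 1 gene was higher and OSBPL2 had adjusted p of 0.0603 and 0.0575. With trends on GC content and length removed, 6 genes were higher and 13 lower.

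Of 29 genes for fatty acid supply, elongation, activation and triglycerides, 15 were lower and 3 higher, with a median of -0.20. SLC25A1, the carrier that exports citrate from mitochondria and so feeds ACLY, fell from 130.88 and 123.7 FPKM with SCR to 35.72 and 35.93 FPKM with PTP2 (log2 fold change -1.80, adjusted p 0.000245). PNPLA3, a lipase of lipid droplets and a known SREBP-1 target, fell from 22.64 and 23.11 FPKM to 3.67 and 4.35 FPKM (log2 fold change -2.26, adjusted p 0.000387). The elongase ELOVL7 rose from 5.27 and 4.89 FPKM to 14.23 and 14.3 FPKM (log2 fold change 1.33, adjusted p 0.000364), and HACD2, a dehydratase of the elongation cycle, rose by 0.50.

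Of 23 genes of fatty acid oxidation, 10 were lower and 8 higher, with a median of -0.07. CPT1A, which lets long fatty acids into mitochondria, rose from 21.61 and 22.28 FPKM with SCR to 38.73 and 39.33 FPKM with PTP2 (log2 fold change 0.80, adjusted p 0.000478), and ECI1, an isomerase for unsaturated chains, rose by 0.92. HADH, a dehydrogenase of the same spiral, fell by 0.99, and CPT1B fell by 0.77. The lower genes numbered 4 to 6 and the higher ones 5 to 6 in the fits without PTP2 replicate 1, PTP2 replicate 2, SCR replicate 1 or SCR replicate 2, and CPT1B had adjusted p of 0.0675 and 0.0657 without SCR replicate 1 or 2. Lower calls made up 93.5% of the 31 synthesis genes and 31.2% to 56.0% of the other 5 lists. Over all genes tested this share was 27.1%, and among genes with a mean of at least 1 FPKM it was 33.5%. Higher calls made up 10.3% to 53.3% of those 5 lists, against 30.8% and 41.1%.

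**Figure D4:**
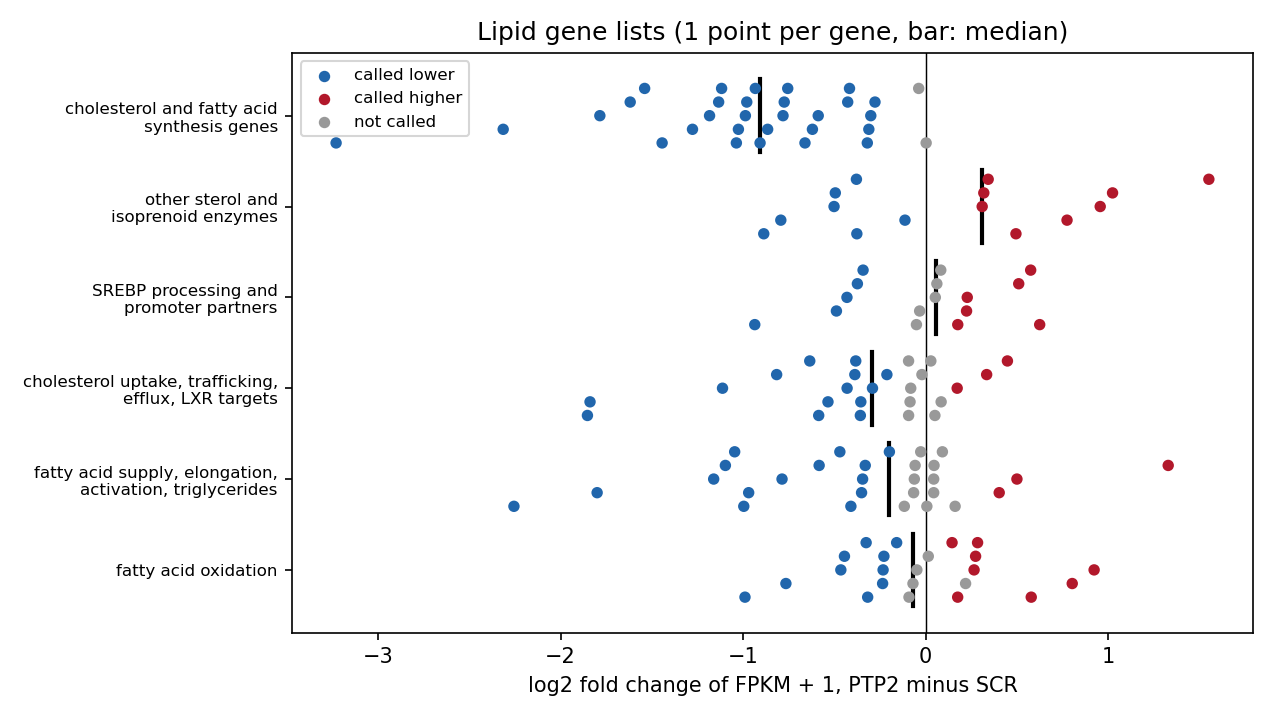
Log2 fold change of FPKM + 1 (PTP2 minus SCR) of each gene of 6 lipid gene lists, with blue points called lower, red called higher, grey not called and a bar at the median. The synthesis genes have a median of -0.91 and no red point, while the other lists have medians from -0.29 to 0.31 and points of both colours.

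Some marker genes also differed between the groups. The epithelial markers summed to 6.85 and 6.64 FPKM with PTP2 and to 12.5 and 11.51 FPKM with SCR over 10 genes. Among them KRT8 fell by 1.26 on the log2 scale, KRT18 fell by 1.36 and CLDN7 rose by 0.78. Without PTP2 replicate 1 or 2, CLDN7 rose by 0.74 and 0.82 but did not pass. Of 13 endothelial markers 3 were called higher and 2 lower. PECAM1, at 1.21 and 1.26 FPKM with PTP2 and at 2.39 and 2.5 FPKM with SCR, fell. VWF fell from 0.98 and 0.93 FPKM with SCR to 0.06 and 0.05 FPKM with PTP2. TEK, KDR and ERG rose by 0.41, 0.47 and 0.75, with KDR and ERG below 1 FPKM in every library. Without PTP2 replicate 1, PTP2 replicate 2 or SCR replicate 1, TEK rose by 0.34 to 0.45 but did not pass. Of 7 myeloid markers with a value, CD68, which many cell types express, rose from 230.34 and 230.64 FPKM with SCR to 357.45 and 339.95 FPKM with PTP2, CSF1R fell by 0.43 and FCER1G rose by 0.40. CSF1R had adjusted p of 0.0718 and 0.067 without SCR replicate 1 or 2, and FCER1G missed the threshold without any 1 library (0.0919 to 0.241). Among the glial and glioma markers CD44 rose by 1.05, NES fell by 1.78 and TNC fell by 1.37. The part of any such cells or shifts in the falls of the synthesis genes was not tested.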

How the data were processed

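RNA of U87 cells was sequenced on a BGISEQ-500 with single-end reads of 50 bases in 2 PTPRN knockdown (PTP2) and 2 control (SCR) libraries, grouped by their labels. The authors deposited FPKM values per gene and library in 2 tables, and 0 of 66380 values compared differed between them. The submitters' processing notes name HISAT2 2.1.0 and hg19, but the gene starts lie within 1 kb of GRCh38.p14 for 85.3% of the 19257 genes matched to RefSeq, so positions are given on GRCh38. The counting program is not given in the sources used here. The deposited columns of the authors' own comparisons (fold changes and p-values) were not used.

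No counts were at hand, so 16595 genes with a value above 0 were tested in 1 fit on log2(FPKM + 1) with limma 3.58.1 (R 4.3.3, lmFit and eBayes with default options, 3.72 degrees of freedom per gene), with Benjamini-Hochberg adjustment over all of them. The fit was also run on simulated data to check the code, with far fewer changed genes than were called here. That run does not show how reliable the calls in these libraries are. An exact permutation test of 1 gene cannot go below 0.333 with 2 against 2 libraries. Depth was estimated from the steps that single reads leave in the FPKM of 227 to 232 short genes per library. Reads per gene are approximate, being computed with the longest transcript. Alternatives were a pseudocount of 0.1, a moderated variance trend, a minimum FPKM of 1 in 2 libraries, a replicate block, quantile normalization, median-ratio scaling, removal of GC content and length trends, and leaving out each library. The genes, lists and tests were chosen with earlier results of these data known. All 31 genes are named, and of each other list the 2 largest rises and 2 largest falls among called genes with a mean of at least 1 FPKM in the higher group. A gene that this rule picks is not reported here.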

Additional observations from a re-analysis of the deposited data

How the results depend on the processing

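Over 12 alternatives, 25 to 29 of the 31 genes were called lower at an adjusted p of 0.05 and 0 higher, and 29 kept a log2 fold change below 0 in each. With the stricter thresholds, where 12 were lower, 12 to 14 were lower under 6 alternatives and 0 with a pseudocount of 0.1, with the replicate block and in the fits without PTP2 replicate 1 or 2 or SCR replicate 1 or 2 (0 to 0). In those 6 fits 0 of all genes tested passed an adjusted p of 0.001, and the lowest adjusted p of any gene was 0.00122, 0.00396 and 0.0226 to 0.0229. At an unadjusted p under 0.05, 27 to 29 of the 31 genes were lower there. A lone library is assumed to vary like the other group. In the fits without 1 library, fewer of all genes tested were called lower or higher at 0.05 as well. Replicate numbers were not shown to pair the libraries (correlation of deviations 0.06). The replicate block kept 28 of 29 lower calls, and SC5D was lost (adjusted p 0.0742), as it was with a pseudocount of 0.1 (0.0556). PMVK ranged from -0.09 to 0.03 and ELOVL6 from -0.08 to 0.02. With trends on GC content and length removed, SREBF1, SREBF2, FASN and ACACA had smaller falls (-1.41, -0.92, -1.85 and -0.99). INSIG2, MSMO1 and SQLE had larger ones (-1.44, -1.86 and -1.19), and 12 genes were lower at the stricter thresholds. The median of genes with a mean of at least 1 FPKM lay between 0.02 and 0.07 under all settings. Depth limits TM7SF2 most, and no direction among the 29 genes changed.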
